A study of Mus musculus with 4 samples.

Results

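Mature neutrophil-like cells high in Retnlg were examined among live CD11b+ myeloid-derived suppressor cells (MDSCs) grown from mouse bone marrow. They were the cells with the highest mean expression of Retnlg, Mmp9, Cxcr2 and Ly6g, so these 4 measured genes chose them, and the levels of those genes are a description, not a finding. Of 9525 barcodes in 4 libraries, 9303 passed a filter of 200 or more genes and no more than 10% mitochondrial UMIs (unique molecular identifiers, each standing for 1 captured RNA molecule). Each kept cell was scaled to 10000 UMIs and log-transformed, the 4 genes were averaged, and the highest 10% of cells with fewer than 5 UMIs of the eosinophil genes Prg2, Epx and Prg3 together were taken. This gave 930 cells, and the eosinophil limit removed 0.

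Unless given for the 930 cells or for all 4 libraries, the values below are those of 2 groups, WT + PBS and WT + ISO. Each had 1 library, and both came from wild-type mice on a C57BL/6 background. The highest 10% was set over all 4 libraries together, and 161 and 243 of the 930 cells came from these groups. Both cultures received the cytokines GM-CSF and IL-6, at 40 ng/mL each, and the ISO culture also 10 µM isoproterenol, an adrenergic agonist, added daily until the cells were sorted on day 4. The titles of the samples and the study's methods give this assignment, while the treatment field of the labels lists isoproterenol for the PBS culture too; the titles were followed. The labels name no animal or repeat culture behind a library, and the sources differ on whether mice of both sexes or females were used. The suspensions carried multiplexing tags and were pooled before capture. The WT + PBS library had 24393687 UMIs in its kept cells, and WT + ISO had 29400468. No barcode was found in more than 1 library (0 of 9525), and in 0 of the 930 Retnlg-high cells was the tag of another library the largest. With 1 library per group no difference could be tested. All intervals are 95%, exact, and cover counting error only, not the spread between cultures or mice. Those of gene and list ratios treat each UMI as an independent draw, so they also leave out the spread between cells.

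Neutrophils form in the bone marrow through stages that each load a granule type: azurophil granules with Mpo and Elane in promyelocytes, specific granules with Ltf and Camp in myelocytes, and gelatinase granules with Mmp9 later still. Division stops before the last steps, and mature cells carry Cxcr2, the receptor for the chemokines that call them out of the marrow, and Ly6g on their surface. Retnlg encodes a secreted resistin-like protein made by mouse neutrophils, and the granulocytic arm of MDSCs resembles cells along this same path.

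The promoters of the genes that chose the cells are shown because 2 families of regulators, C/EBP factors and PU.1, are known to act on neutrophil genes. They are the 250 bases before the start of the gene on the plus strand in a table of RefSeq promoters (GRCm38.p6), in which 3 of the 4 genes were matched; Mmp9 is named only. The window is chr16:48872358-48872607 for Retnlg, chr1:74153744-74153993 for Cxcr2 and chr15:75155011-75155260 for Ly6g, for which the outer of 2 listed starts was used. Capitals mark matches to TTNNGNAA (a C/EBP-like pattern, reverse complement TTNCNNAA) or GAGGAA (a PU.1-like pattern, reverse complement TTCCTC), on either strand.
Retnlg: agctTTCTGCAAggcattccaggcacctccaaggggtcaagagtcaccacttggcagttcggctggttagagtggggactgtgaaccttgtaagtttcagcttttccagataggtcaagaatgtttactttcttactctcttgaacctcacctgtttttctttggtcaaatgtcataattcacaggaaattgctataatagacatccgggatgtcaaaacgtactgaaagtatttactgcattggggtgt
Cxcr2: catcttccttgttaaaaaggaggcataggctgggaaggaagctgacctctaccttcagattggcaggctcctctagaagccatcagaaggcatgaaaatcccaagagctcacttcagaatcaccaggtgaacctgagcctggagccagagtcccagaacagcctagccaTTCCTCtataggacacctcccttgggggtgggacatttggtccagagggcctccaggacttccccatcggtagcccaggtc
Ly6g: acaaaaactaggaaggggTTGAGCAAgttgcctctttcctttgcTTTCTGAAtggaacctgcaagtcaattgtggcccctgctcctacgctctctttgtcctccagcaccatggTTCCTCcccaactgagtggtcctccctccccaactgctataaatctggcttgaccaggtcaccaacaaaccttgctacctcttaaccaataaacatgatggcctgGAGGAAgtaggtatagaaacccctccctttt
Retnlg had 1 C/EBP-like match, TTCTGCAA, at bases -246 to -239 from the start, and 0 PU.1-like matches. Cxcr2 had 1 PU.1-like match at -81 to -76. Ly6g had both kinds, TTGAGCAA at -232 to -225 and TTTCTGAA at -206 to -199 for C/EBP, and TTCCTC at -136 to -131 and GAGGAA at -31 to -26 for PU.1. No 2 matches overlapped. Such matches are common: among 32851 RefSeq promoters of the same length, 36.9% held the C/EBP-like and 23.3% the PU.1-like pattern. They describe the letters in the window and are not binding sites shown by these data.

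The score of the Retnlg-high cells ran from 1.501 to 3.58 with a median of 1.99. The lowest cell inside scored 1.5010 and the highest outside 1.4999. Within 0.05 of that line lay 69 cells inside and 64 outside, so the group is a range of a continuous score. In 14.9% of the cells Retnlg itself had 0 UMIs. Thinning every cell to 2000 UMIs before scoring kept 77.4% of them, and leaving Retnlg out of the score kept 73.4%.

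The cells made up 7.29% of WT + PBS (161 of 2210 cells, interval 6.24 to 8.45) and 10.7% of WT + ISO (243 of 2264, 9.49 to 12.1). Their share was thus higher with ISO than with PBS, with a log2 ratio of 0.56 (0.27 to 0.86). The denominator mattered. Among cells in the highest 10% of this score or of a score of specific granule genes (Ltf, Camp, Ngp, Chil3) or azurophil granule genes (Mpo, Elane, Prtn3, Ctsg), a denominator chosen after seeing the data, the cells were 28.2% of WT + PBS (161 of 571, 24.5 to 32.1) and 27.3% of WT + ISO (243 of 891, 24.4 to 30.3). The log2 ratio then lay at -0.05 (-0.34 to 0.25), so that relative to other cells high in neutrophil genes no higher share with ISO was detectable at this depth. Leaving Ly6g out of the score gave 0.27 (-0.02 to 0.56) over all kept cells.

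**Figure D1:**
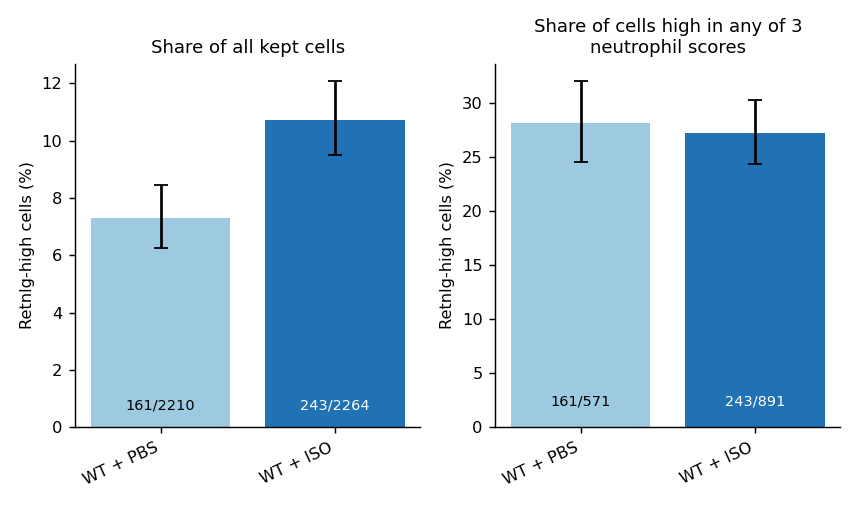
Share of Retnlg-high cells (%) in each library, as a share of all kept cells (left) and of cells in the highest 10% of any of 3 neutrophil scores (right); bars are shares, lines are exact 95% intervals, and the numbers inside are cells. On the left the shares are 7.29% in WT + PBS and 10.7% in WT + ISO; on the right they are 28.2% and 27.3%.

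The cells carried little RNA. The median cell of WT + PBS had 4052 UMIs and that of WT + ISO 5343, or 0.440 and 0.449 of the median of all other kept cells of the same library. The median number of genes was 1314 and 1572. Thinned to 2000 UMIs each, the cells still had fewer genes (787 and 786.5) than the others (991 and 949), but about as many as the specific-granule cells (761.5 and 793). Mitochondrial UMIs took a median of 2.86% and 2.69%. A small set of genes made up much of the RNA: the 10 most abundant held 38.0% of the 4465204 UMIs of the 930 Retnlg-high cells, and S100a9 and S100a8, which pair into the calcium-binding calprotectin of the neutrophil cytosol, alone held 14.8% and 10.7%.

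As the rule fixed, Retnlg reached 4261 UMIs per 1000000 UMIs (CPM, summed over the cells of a library) in WT + PBS and 3164 in WT + ISO; pairs of values below keep this order. In all other kept cells it had 20.3 and 18.2 CPM. The gene lies on chromosome 16 at 48872608 to 48874498 (GRCm38.p6, as are the other positions). It was found in 85.1% and 81.5% of the cells, and in 79.1% and 72.0% after thinning. Macrophage comparison cells (the highest 10% for C1qa, C1qb, C1qc and Mrc1, less the Retnlg-high cells among them), which should lack it, gave 6.95% and 6.25% at medians of 14848 and 16615.5 UMIs, and 2.17% and 3.17% thinned. Specific-granule comparison cells, chosen in the same way on Ltf, Camp, Ngp and Chil3, gave 4.55% and 5.78% thinned. Retnlg-high cells were taken out of both comparison sets (84 of 930 specific-granule and 8 of 930 macrophage cells over the 4 libraries), so that low levels of the rule genes there follow in part from the choice. Within the Retnlg-high cells the log2 ratio of Retnlg, ISO over PBS, was -0.43 (-0.50 to -0.36), and in all other kept cells -0.16 (-0.34 to 0.02). Since Retnlg was used to divide the cells, neither ratio is read as a difference with ISO.

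Mmp9 (chromosome 2, 164940326 to 164955850), the gelatinase of the late granules, had 1260 and 1133 CPM against 71.7 and 54.0 in other cells. Cxcr2 (chromosome 1, 74153994 to 74161246) had 344 and 334 CPM against 32.1 and 29.4. Ly6g (chromosome 15, 75155261 to 75159128) had 697 and 1162 CPM against 56.2 and 74.0. Ly6g was also found in the specific-granule comparison cells, which held it after thinning in 43.2% and 41.5%.

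The label was set beside 26 mature neutrophil markers outside the rule, a list chosen with earlier results of these data known. In each library 25 of the 26 were higher in the Retnlg-high cells than in all other kept cells; the exception in both was G0s2, an inhibitor of fat breakdown, with log2 ratios of -0.03 and -0.38. Against the specific-granule cells 22 and 23 of the 26 were higher, but the list summed to 288957 and 285626 CPM beside 274481 and 261936 there. Pooled over the Retnlg-high cells of all 4 libraries, S100a9 made up 51.4% of the list. These ratios and counts belong to the cells that were chosen and carry no test. The share of all genes that were higher in these cells is not given, so the counts are not read as particular to these markers. Csf3r, the receptor for the granulocyte growth factor G-CSF, had 265 and 202 CPM against 62.6 and 40.0 elsewhere. Il1r2, a decoy receptor that binds IL-1 without signalling, had 1477 and 1072 CPM against 542 and 343, and was found after thinning in 87.6% and 83.1% of the cells against 53.4% and 50.5% of specific-granule cells. Ccl6, a chemokine, had 11074 and 9651 CPM against 2476 and 1880.

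Most markers of other cell types were scarce. C1qc, Epx, Prg3, Ccr3, Il5ra, Flt3, Cd209a, Ms4a6c and all 6 erythroid genes had 0 UMIs in the 930 cells, and C1qb had 0 UMIs in the PBS and 1 in the ISO library. No cell (0 of 930) had 5 or more UMIs of C1qa, C1qb, C1qc and Mrc1 together. The 10 macrophage genes summed to 155 and 92.2 CPM, against 317 and 162 in all other kept cells, 18.1 and 12.6 in the specific-granule cells and 1191 and 997 in the macrophage cells. Over the 930 cells 47.9% of their UMIs came from Csf1r, the receptor for the growth factor M-CSF. After thinning Csf1r was found in 11.8% and 8.90% of the Retnlg-high cells, and Adgre1, which encodes the macrophage antigen F4/80, in 11.1% and 4.66%; in the specific-granule cells no value of either gene was above 2.27%. The 10 dendritic cell genes summed to 192 and 97.5 CPM against 1079 and 356 in other cells. Over the 930 cells 86.6% of their UMIs came from Cd74, the chaperone of MHC class II. The 10 azurophil granule genes, made early in neutrophil development, summed to 341 and 385 CPM against 4956 and 6526 in other cells, and 20 cell cycle genes to 172 and 197 CPM against 2656 and 3118. The 7 mast cell and basophil genes had UMIs from Hdc alone, the enzyme that makes histamine, while the other 6 were at 0. The 8 monocyte genes summed to 1817 and 2158 CPM against 1703 and 1536 in other cells. Over the 930 cells 95.8% of their UMIs came from Ly6c2, which neutrophils also express. The 12 specific granule genes summed to 46658 and 59170 CPM, against 22974 and 29694 in other cells and 102197 and 106933 in the specific-granule cells. By these lists the cells had markers of late neutrophils, specific granule transcripts of an earlier stage, and few azurophil granule or cell cycle transcripts. They had few or no UMIs of the C1q genes, Mrc1 and the eosinophil genes, while Csf1r and Adgre1 were present in part of the cells.

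**Figure D2:**
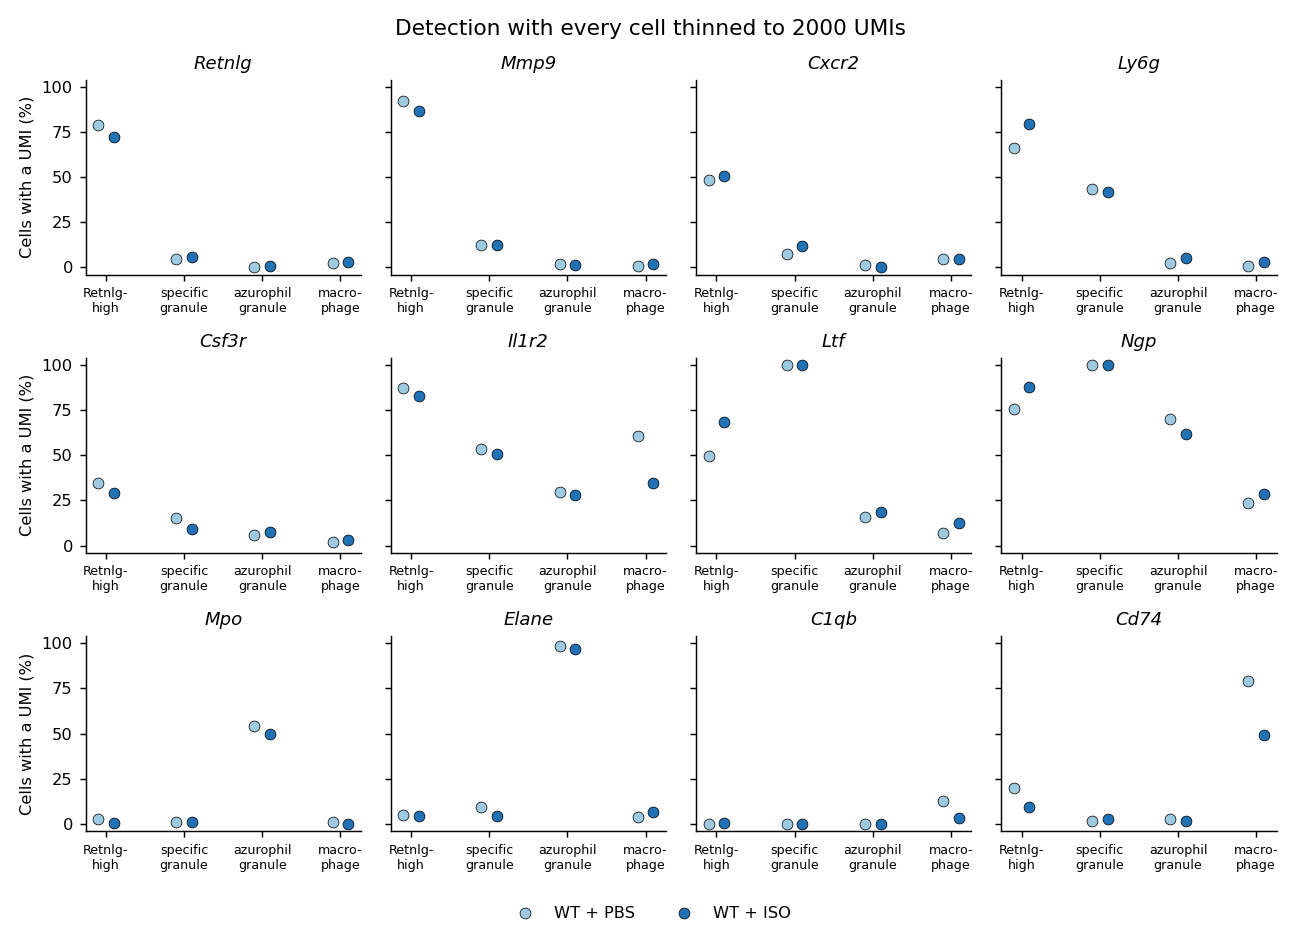
Percent of cells with at least 1 UMI of 12 genes after every cell was thinned to 2000 UMIs, in Retnlg-high cells and in specific-granule, azurophil-granule and macrophage comparison cells; each point is 1 library. Retnlg sits at 79.1% and 72.0% in the Retnlg-high cells and at 5.78% or less elsewhere, whereas Ltf and Ngp are shared with the specific-granule cells and C1qb and Mpo are near 0 in the Retnlg-high cells.

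The 20 leading genes outside the rule were those with the largest ratio to all other cells in the library where it was smallest, found in at least 10% of the Retnlg-high cells of each of the 4 libraries. Adam19, a membrane protease, came first with 52.5 and 80.2 CPM against 3.54 and 4.45. Slfn4, an interferon-inducible gene of myeloid cells, had 128 and 138 CPM against 13.2 and 17.8. Asprv1, an aspartic protease, had 369 and 249 CPM against 40.9 and 26.8. Some leading genes act at the cell surface or outside it. Nt5e, the CD73 enzyme that makes adenosine from AMP, had 362 and 319 CPM against 72.0 and 53.3. Ceacam10, a secreted member of the carcinoembryonic antigen family, had 1221 and 1543 CPM against 158 and 271. Myo1d, an unconventional myosin, had 332 and 187 CPM against 63.8 and 36.8. Hdc had 146 and 89.2 CPM against 21.0 and 14.0, and Mctp2 162 and 140 CPM against 25.9 and 29.4. Further leading genes were 4933412O06Rik, Scrg1, Rufy4, Jam2, Ifi204, E230014E18Rik, Smpd5, Mirt2, Mgam, Trim30b and Chrm3. Against the specific-granule cells in place of all others, only 2 of these 20 remained among the 20 leading genes.

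The cells were not uniform in specific granule genes, which the rule did not use. Of the 930, 84 (9.03%) were also in the highest 10% for Ltf, Camp, Ngp and Chil3, 8 (0.860%) in the highest 10% for the macrophage score and 0 for the azurophil score. The 84 held 13 cells of WT + PBS, or 8.07% of the Retnlg-high cells there, and 33 of WT + ISO (13.6%). The Retnlg-high cells were split into 3 parts of equal size (pooled over libraries) by the specific granule score. WT + PBS had 69 cells in the low part (42.9%), 44 in the middle (27.3%) and 48 in the high part (29.8%). WT + ISO had 57 (23.5%), 98 (40.3%) and 88 (36.2%), and so a smaller share in the low part. Median UMIs were 3782 and 4465 in the low part and 4489 and 5673.5 in the high part.

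Some other genes, named here after their values were seen, differed along the 3 parts in both libraries. Cebpe, a transcription factor needed for specific granules, had 37.5 and 58.7 CPM in the low part and 225 and 164 in the high part. Padi4, the enzyme that citrullinates histones, had 116 and 114 CPM in the low part and 216 and 265 in the high part. Csf3r, Il1b and Cxcl2 went the other way. Csf3r had 386 and 341 CPM in the low part and 176 and 128 in the high part. Il1b, the inflammatory cytokine IL-1β, had 574 and 316 CPM in the low part and 167 and 36.8 in the high part. Cxcl2, a chemokine that binds Cxcr2, had 1714 and 1413 CPM in the low part and 388 and 358 in the high part. Ccl6 had 14721 and 12335 CPM in the low part and 6319 and 6900 in the high part. Cell cycle genes stayed low in each part, at 154 and 206 CPM in the low part and 194 and 205 in the high part.

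**Figure D3:**
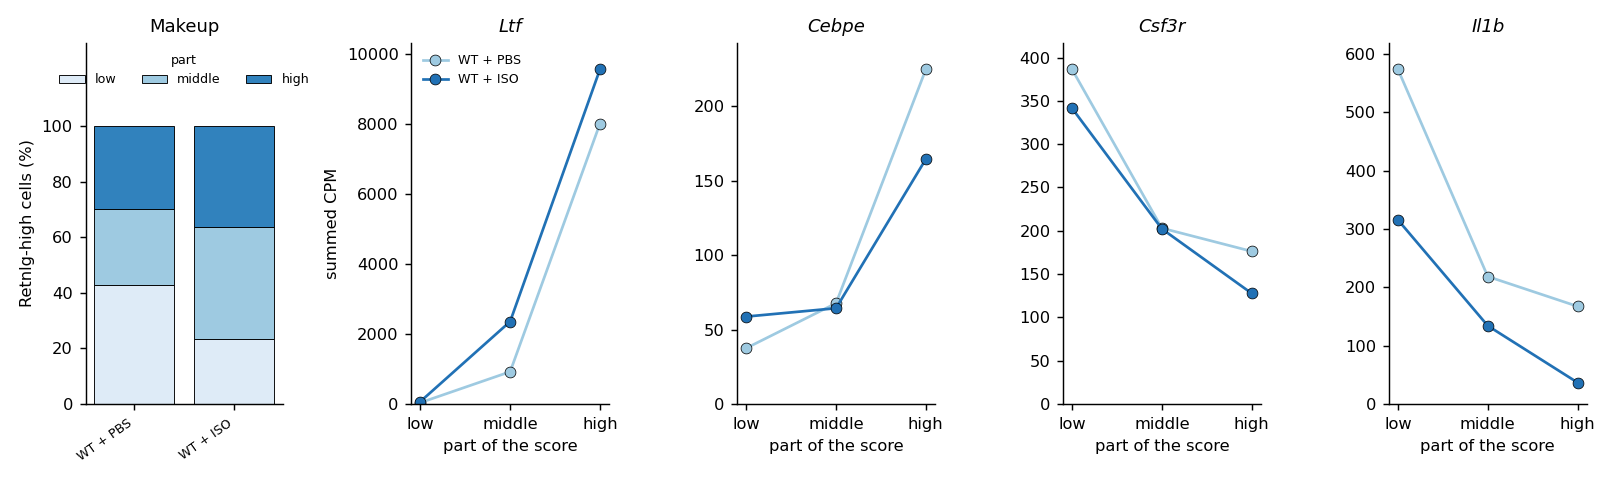
Left, percent of the Retnlg-high cells of each library in the 3 parts of the specific granule score; right, summed CPM of Ltf (part of that score), Cebpe, Csf3r and Il1b in each part, 1 line per library. The low part holds 42.9% of the WT + PBS cells and 23.5% of the WT + ISO cells, and Csf3r goes from 386 and 341 CPM in the low part to 176 and 128 in the high part.

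The difference between the ISO and PBS cultures in the Retnlg-high cells was read as the log2 ratio of summed CPM, ISO over PBS, of genes with at least 100 UMIs over both libraries. Of 2291 genes, 12 were at least 2-fold higher (0.524%) and 14 at least 2-fold lower (0.611%), and the median over all genes was -0.03. These ratios compare libraries, and ISO cannot be told apart from other differences between them.

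Among the genes lower with ISO, Spp1 (osteopontin, chromosome 5, 104435111 to 104441053) had 521 CPM in WT + PBS and 171 in WT + ISO, a log2 ratio of -1.61 (-1.85 to -1.36). The ratio was -0.86 for the highest 5% of the score and -0.99 without Retnlg in the score, and in all other kept cells it was -1.23. In WT + PBS, 48.5% of its UMIs lay in 5 of the 68 cells with any. Il1b (chromosome 2, 129364569 to 129371164) had 340 and 134 CPM, a ratio of -1.35 (-1.64 to -1.06). Given equal weight, the 3 parts of the specific granule score left -0.98; the low part, where Il1b is highest, held the fewest of the cells in WT + ISO. In all other kept cells Il1b had -1.61.

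Dusp1, a phosphatase that ends MAP kinase signalling, had 265 and 124 CPM, a ratio of -1.09 (-1.40 to -0.78), beside -0.79 in other cells. Fabp5, a fatty acid carrier, had 206 and 91.5 CPM and a ratio of -1.17 (-1.53 to -0.81). In other cells its ratio was -0.04, and in the specific-granule cells -0.28. Pcgf5, a Polycomb group protein, had 93.3 and 36.7 CPM and -1.34 (-1.91 to -0.79), against 0.095 in other cells (0.0037 to 0.186) and 0.20 in the specific-granule cells. For Fabp5 and Pcgf5 the intervals of the Retnlg-high cells and of the other cells did not overlap. The same held for further genes named here, among them Spp1, Adgre1, Inhba, Blvrb and Spint1, but not for Il1b, Dusp1 and Hmox1. These genes were picked on the Retnlg-high cells, so such gaps follow in part from the choice. The share over all genes is not given here. Bnip3, a mitochondrial protein induced by hypoxia, had 77.3 and 36.0 CPM and -1.10, beside -0.86 in other cells.

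Genes of other myeloid cells were among those lower with ISO. Adgre1 had 84.6 and 33.0 CPM and a ratio of -1.36, but -0.42 once the cells were thinned and -0.57 in other kept cells. Ccl4, a chemokine, had 245 and 90.7 CPM; 5 cells held 78.6% of its UMIs in WT + PBS, and its ratio of -1.43 turned to 0.54 when Retnlg was left out of the score. In other kept cells Ccl4 had -1.12. Cd74 had 169 and 81.0 CPM, a ratio of -1.06 (-1.45 to -0.67), and -1.59 in other kept cells. Cd74 and Adgre1 belong to the dendritic cell and macrophage lists, which were at -0.98 and -0.74. Only 1 and 2 genes of these lists were measured, the 1 being Cd74 itself. The monocyte list gave 0.25 (0.15 to 0.35), with 1 of 2 measured genes above 0. The libraries also held 187 and 64 macrophage comparison cells; the part of these values in the ratios of the Retnlg-high cells was not tested.

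Among the genes higher with ISO, Hmox1 (heme oxygenase, chromosome 8, 75093618 to 75100593), which breaks down heme, had 68.5 and 158 CPM, a ratio of 1.21 (0.75 to 1.70). It was found in 37 and 92 cells, and its ratio was 0.56 once the cells were thinned to 2000 UMIs. In all other kept cells Hmox1 had 0.93, and in the specific-granule cells 0.053. Blvrb, which acts after heme oxygenase in reducing biliverdin, had 122 and 274 CPM, a ratio of 1.16 (0.82 to 1.52). It was below 2-fold in 7 of the alternatives, as low as 0.81.

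Inhba, a subunit of activin A, had 86.0 and 198 CPM, a ratio of 1.20 (0.79 to 1.64). Ptgs1, the cyclooxygenase COX-1, had 30.6 and 78.0 CPM and a ratio of 1.35 (0.66 to 2.10). Over the alternatives the lowest ratios were 1.09 for Inhba and 1.13 for Ptgs1, both for other choices of cells. Spint1, an inhibitor of serine proteases, had 62.7 and 147 CPM and a ratio of 1.23 (0.75 to 1.74), with -0.02 in all other kept cells and 1.27 in the specific-granule cells. Gchfr, a regulator of the enzyme that starts tetrahydrobiopterin synthesis, had 40.8 and 86.2 CPM with a ratio whose interval ran from 0.47 to 1.73, and Mgst2, a microsomal glutathione transferase, 52.5 and 110 CPM and 1.06 (0.53 to 1.63). Ly6a (Sca-1, chromosome 15, 74994877 to 74998031) had the largest ratio, 2.27 (1.37 to 3.31), from 16.0 and 77.2 CPM, but rested on 10 and 18 cells, with 82.5% of the WT + ISO UMIs in 5 of them. Those UMIs lay mostly in the low part, which had 30.0 and 338 CPM.

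**Figure D4:**
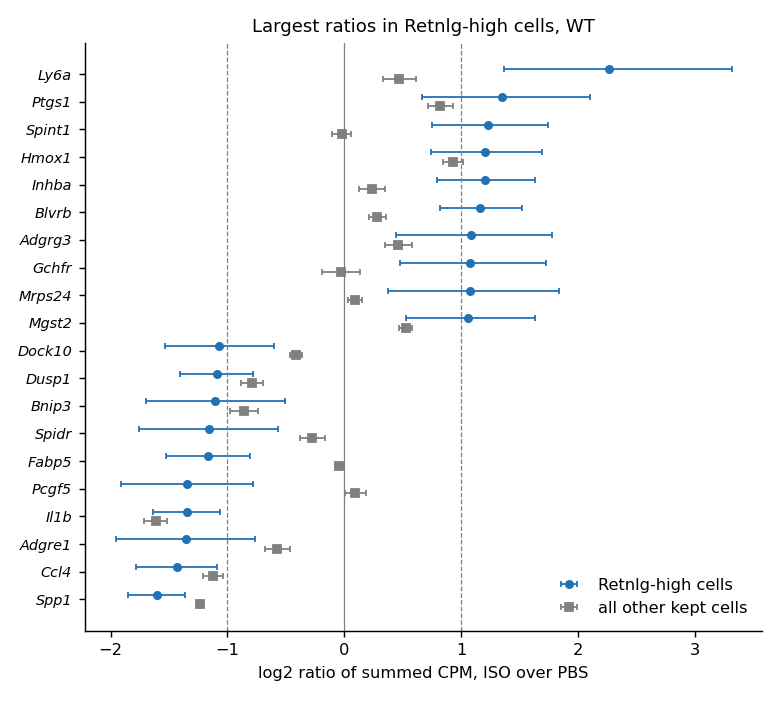
Log2 ratio of summed CPM, ISO over PBS, in Retnlg-high cells (circles) and all other kept cells (squares) of WT, for the 10 genes highest and the 10 lowest in the Retnlg-high cells; lines are exact 95% counting intervals, dashed lines mark 2-fold. The genes were picked on the Retnlg-high cells, so smaller ratios in the other cells follow in part from the choice; Hmox1 has 1.21 and 0.93, and Fabp5 -1.17 and -0.04.

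Of 11 measured specific granule genes, 10 had a ratio above 0 and 0 were past 2-fold, with a median of 0.35 beside -0.03 for all genes. Their sum went from 46658 to 59170 CPM (0.34, 0.32 to 0.36). Ltf, the iron-binding lactoferrin, had 2921 and 4677 CPM (0.68), and Lcn2, which binds iron-carrying siderophores, 14515 and 19947 CPM (0.46). In all other kept cells the sum of the list had a ratio of 0.37 (0.365 to 0.375), and in the specific-granule cells 0.065. The ratio in the Retnlg-high cells was 0.20 without Retnlg in their score, and 0.15 with the 3 parts at equal weight, which by construction evens out 4 of the same genes. Of 7 measured gelatinase granule and secretory vesicle genes, 4 were above 0 and 0 past 2-fold, with a median of 0.02. Their sum (0.50) came mostly from the collagenase Mmp8, with 1525 and 2933 CPM (0.94, 0.84 to 1.04), without which it was 0.02.

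Of the measured Nrf2 response genes, 13 of 14 were above 0, with Hmox1 and Blvrb past 2-fold. Their median was 0.33, and the sum gave 0.35 (0.33 to 0.37). Over the 930 cells 52.1% of the list came from Fth1, the ferritin heavy chain, with 18861 and 24883 CPM. Gclm, the regulatory subunit of the enzyme that limits glutathione synthesis, had 251 and 424 CPM (0.76, 0.51 to 1.01), with 0.97 in other kept cells and 0.86 in the specific-granule cells. Slc7a11, which imports cystine, had 408 and 502 CPM (0.30).

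Of the 4 measured interferon response genes 3 were above 0, and the list summed to 0.55 (0.50 to 0.60). Pooled over the Retnlg-high cells of all 4 libraries, Ifitm1, a membrane protein that blocks virus entry, gave 74.9% of the list. Ifitm1 had 5294 and 7950 CPM (0.59, 0.53 to 0.64). In all other kept cells Ifitm1 had -0.04, but in the specific-granule cells 1.38 (1.29 to 1.48). Lrg1, a secreted glycoprotein stored in neutrophil granules, had 478 and 771 CPM (0.69, 0.51 to 0.87), and Wfdc17, a small protease-inhibitor-like protein, 1139 and 1702 CPM (0.58). In all other kept cells Lrg1 had 0.36 and Wfdc17 -0.44, and in the specific-granule cells 0.29 and 1.65.

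**Figure D5:**
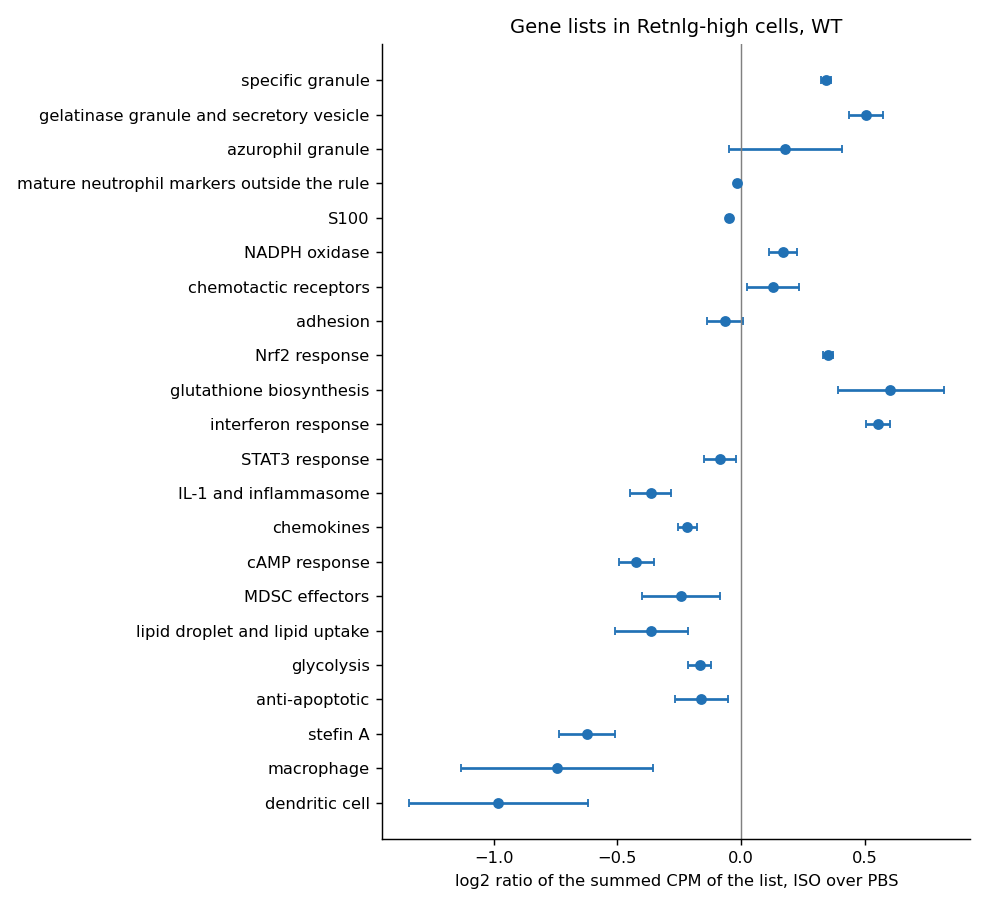
Log2 ratio of the summed CPM of 22 gene lists, ISO over PBS, in Retnlg-high cells of WT; lines are exact 95% counting intervals. Specific granule (0.34), Nrf2 response (0.35) and interferon response (0.55) lie right of 0, and IL-1 and inflammasome (-0.37) and stefin A (-0.62) left of it.

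Lower sums with ISO were found for several lists. Of 6 measured IL-1 and inflammasome genes, 2 were above 0, with a sum of -0.37 (-0.45 to -0.29), and Il1r2 made up 49.5% of the list. This share and those of Thbs1 and Ccl6 below are pooled over the Retnlg-high cells of all 4 libraries. The genes known to respond to cyclic AMP had 2 of 7 above 0, with a sum of -0.42 (-0.49 to -0.35), 62.1% of the list being Thbs1. Chemokines had 1 of 5 above 0 (-0.22), and 87.1% of their UMIs came from Ccl6. Glycolysis genes had 2 of 16 above 0, with a sum of -0.17 (-0.21 to -0.12). MDSC effector genes had 0 of 4 above 0 (-0.24, -0.40 to -0.09). Genes of lipid droplets and lipid uptake had 2 of 6 above 0 (-0.36, -0.51 to -0.22). In all other kept cells the sums of these lists were lower with ISO too. There IL-1 and inflammasome genes had 1559 and 1187 CPM, cyclic AMP genes 2134 and 1703, and chemokines 3392 and 2500. Glycolysis genes had 10353 and 8905 CPM, MDSC effector genes 434 and 361, and the lipid genes 1293 and 1272.

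Stefin A genes encode small inhibitors of cysteine proteases in a cluster of near-identical copies, among which the counting may split reads. Of 5 measured, 1 was above 0, and the 7 genes in the files summed to 1619 and 1051 CPM (-0.62, -0.74 to -0.51). Cstdc4 had 990 and 673 CPM, a ratio of -0.56 (-0.70 to -0.41), with -0.94 in other kept cells and -2.76 in the specific-granule cells. In WT + PBS 5 cells held 48.7% of its UMIs, and 5 cells of WT + ISO 60.6%. The sum depended on which cells were counted: it was -0.0077 with equal weight per part of the specific granule score, -0.21 for the highest 5% of the score and -1.17 for the highest 15%.

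NADPH oxidase genes, whose complex makes superoxide, had 6 of 7 above 0, with a sum of 0.17 (0.11 to 0.22). Anti-apoptotic genes had 0 of 5 above 0, with a sum of -0.16 (-0.27 to -0.05), a median of -0.36 and 0 past 2-fold. In all other kept cells this list was lower with ISO too, at 1109 and 790 CPM. Pooled over the Retnlg-high cells of all 4 libraries, Mcl1 made up 49.9% of the list. Chemotactic receptors gave 0.13 with 3 of 5 measured genes above 0, adhesion genes -0.07 with 3 of 8, STAT3 response genes -0.09 with 3 of 8, and ATP synthase genes 0.04. Genes of the TCA cycle gave 0.09 (-0.08 to 0.26), with 1 of 3 measured genes above 0 and a median of -0.26. The pro-apoptotic list gave -0.15 (-0.34 to 0.04), with 0 of 2 measured genes above 0. Only 2 or 3 genes of the last 2 lists reached 100 UMIs, so little was detectable there at the depth of these cells.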

How the data were processed

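The authors deposited counts of UMIs per gene and cell for 4 multiplexed 10x Genomics libraries, without normalization and for barcodes called as cells (32285 genes and 12 tags; tags were used only to check the assignment). Per the file headers the counts came from Cell Ranger 7.0.0, whereas the submitters' processing notes name Cell Ranger 6.0.0, Seurat and mm10. The strand and intron settings of the counting are not given in the sources used here, and 0 columns of other samples were present.

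Cells were kept and chosen as described at the start. Deposited counts were summed over the chosen cells of a library and given as CPM. Since each group had 1 library, ratios carry exact conditional binomial intervals and shares exact Clopper-Pearson intervals (95%, counting error only), and genes past 2-fold are counted among those with at least 100 UMIs in the pair. Cells were thinned to 2000 UMIs for shares of cells with a UMI, and shallower cells were left out: 8 of 161 for WT + PBS, and for WT + ISO 7 of 243. Scrublet (in scanpy 1.11.5) called 1 of 9303 cells a doublet (0.0107%). So low a share was not relied on, and no doublets were removed except in an alternative. Whether the deposited barcodes had been cleared of them is not given in the sources used here. Positions and promoters came from RefSeq (GRCm38.p6).

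Named genes were the 20 leading genes, the 10 genes that differed most in each direction between ISO and PBS and were found in 5% or more of the cells of the higher library, the rule markers and members of 36 gene lists with at least 100 UMIs; Cd74 and Cstdc4 were named beside them after their values were seen. Library values are given for the WT groups, and the remaining libraries and some genes are not reported here. The members and lists were chosen with earlier results of these data known. Alternatives were other filters, scores, thresholds, library totals, weights and gene minimums. The ratios were run on simulated counts drawn from the model that the intervals assume, without spread between cells. Such data cannot show how the intervals behave with that spread. Python 3.11.15, numpy 2.4.6, scipy 1.17.1, pandas 2.3.3 and matplotlib 3.10.9 were used.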

Additional observations from a re-analysis of the deposited data

How the results depend on the processing

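No paired analysis was possible because there was 1 library per group, all with the same replicate number; for the same reason no replicate could be left out. The share ratio turned to -0.048 among cells high in a neutrophil score. The number of genes at least 2-fold higher with ISO (12) was 5 with the score without Ly6g, 2 with cells thinned to 2000 UMIs, and 43, 5 and 2644 with a minimum of 50, 200 or 1 UMIs. The number lower (14) was 9 for the highest 5% of the score, 22 without Ly6g, 8 with the 3 parts at equal weight, and 37, 6 and 1473 by minimum. Thinning and the minimum change how many genes are measured; the cause of the other shifts was not tested.

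Signs reversed for the rule markers (0.19 without the most abundant gene), the mature markers (0.055 with summed UMIs, 0.018 without Mmp9, 0.081 without Ly6g, 0.0059 without the 20 most abundant genes), the S100 genes (0.024 with summed UMIs, 0.055 without Ly6g), the monocyte genes (-0.056 by median, -0.47 without the most abundant gene) and Ccl4 (0.54 without Retnlg). Of the other values of lists, 519 moved by less than their counting interval and 122 by more. For named genes these were 426 and 29. The counts include settings that left the same 930 cells and so could not move any value. These were removal of called doublets, removal of cells with macrophage UMIs, and no eosinophil limit. The TCA cycle genes, whose sum of 0.09 had an interval that held 0, also had the other sign by median (-0.26). The equal weight of the 3 parts of the specific granule score, a library total without S100 and granule genes and the neutrophil-score denominator were chosen after seeing the data. Depth limits these cells: 2291 genes could be measured, and 926 after thinning.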
